A study of Mus musculus with 34 samples.

Results

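The 6 genes described here are the mouse mitochondrial genes that encode cytochrome b of respiratory complex III (mt-Cytb), the 3 mitochondrially encoded subunits of cytochrome c oxidase, complex IV (mt-Co1, mt-Co2 and mt-Co3), and the 2 mitochondrially encoded subunits of ATP synthase, complex V (mt-Atp6 and mt-Atp8). They were chosen by name from the 51368 genes of the deposited table, by a rule that holds no measured value but was set with earlier results of these data known, and all 6 were present and passed the filter on low counts in every model below. The study prepared sequencing libraries in different ways from RNA of 1 wild-type C57BL/6J mouse, 12 weeks old; its sex is left out because the labels contradict each other on it. Liver RNA gave 9 libraries after poly(A) selection (batch 1), 9 after pull-down of ribosomal RNA (rRNA) with probes and 9 after enzymatic digestion of rRNA (both batch 2). Each set of 9 crossed 3 PCR ramp rates (slow, medium, fast) with 3 fragment lengths (short, medium, long) and started from 200 ng of RNA. Unselected liver RNA, in which rRNA was kept, gave 3 libraries in batch 1 and 3 in batch 2, and heart RNA gave 1 unselected library in batch 1, all from 20 ng with the slow ramp and medium fragments. All libraries had 13 PCR cycles. The libraries are repeat preparations from 1 animal, so every p-value below measures the spread between preparations, which is technical, and says nothing about spread between mice. Each method also came with its own library kit, poly(A) selection with its own batch, and all selected libraries with a larger input than the unselected ones, so method, kit, batch (for poly(A)) and input cannot be told apart.

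Mitochondrial DNA is a small circle from which each strand is copied into a long transcript, and most of its mRNAs are cut free where transfer RNAs flank them and are given short poly(A) tails. In several of these mRNAs the encoded stop codon is incomplete and the tail supplies the missing bases. Cytochrome b carries electrons within complex III, the cytochrome oxidase subunits form the catalytic core of complex IV that reduces oxygen, and ATP synthase subunits 6 and 8 belong to the membrane part of complex V, through which protons return and drive ATP synthesis. The remaining subunits of the same complexes are encoded in the nucleus, and heart muscle is known for a high content of mitochondria.

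In GRCm38 (GENCODE M21 annotation), the 6 genes lie on the plus strand of the mitochondrial chromosome and each is a single protein-coding exon without annotated untranslated regions. mt-Co1 (ENSMUSG00000064351) spans chrM:5328-6872, mt-Co2 (ENSMUSG00000064354) chrM:7013-7696, mt-Atp8 (ENSMUSG00000064356) chrM:7766-7969, mt-Atp6 (ENSMUSG00000064357) chrM:7927-8607, mt-Co3 (ENSMUSG00000064358) chrM:8607-9390 and mt-Cytb (ENSMUSG00000064370) chrM:14145-15288. The last 43 bases of mt-Atp8 are also the first 43 of mt-Atp6, and mt-Atp6 and mt-Co3 share 1 base. The whole mt-Atp8 sequence of 204 bases is shown because its reads are partly reads of mt-Atp6 as well. Capitals mark the overlap.

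mt-Atp8: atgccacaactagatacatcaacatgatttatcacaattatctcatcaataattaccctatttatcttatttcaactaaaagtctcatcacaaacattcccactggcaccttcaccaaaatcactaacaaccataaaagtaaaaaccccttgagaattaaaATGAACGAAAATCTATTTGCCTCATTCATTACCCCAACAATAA

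The ends of the annotated models show which of the genes end in a whole stop codon, a feature that bears on the poly(A) tail. The last 30 bases of 4 of them follow, with the stop codon, or the single base of it that is encoded, in capitals.

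mt-Co1: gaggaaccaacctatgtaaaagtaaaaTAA

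mt-Atp6: gtaagcctatatctacatgataatacaTAA

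mt-Co3: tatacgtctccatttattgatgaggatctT

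mt-Cytb: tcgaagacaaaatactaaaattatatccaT

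mt-Co3 and mt-Cytb have 1 base left over after the last whole codon, whereas mt-Co1, mt-Co2, mt-Atp6 and mt-Atp8 end in TAA. The last base of mt-Atp6 is also the first of mt-Co3, so the model does not show whether the mt-Atp6 mRNA keeps it.

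The sequences of 3 of the 6 genes could not be told from annotated copies of mitochondrial DNA in the nuclear genome. On chromosome 1, minus strand, Gm28661 (chr1:24614885-24615565) matched mt-Co2 at 100% over 681 of its 684 bases, Gm28437 (chr1:24613189-24613971) matched mt-Co3 at 100% over 783 of 784 bases, and Gm10925 (chr1:24613974-24614651) matched mt-Atp6 at 100% over 678 of 681 bases. Nearby, Gm29216 (chr1:24615706-24616197) matched the last 483 bases of mt-Co1 with 1 difference, A1066T, counted from the first base of mt-Co1 with the mitochondrial base first. On chromosome 2, Gm13340 (chr2:22588103-22589647) matched mt-Co1 at 97.6% and Gm13341 (chr2:22587291-22587962) matched mt-Co2 at 95.9%. No annotated transcript matched mt-Cytb or mt-Atp8 at 95% or more over at least 100 bases. Of all stretches of 31 bases in each gene, 0% of those of mt-Co2, 0.133% of those of mt-Co3 and 0.461% of those of mt-Atp6 occurred in no other annotated gene, against 36.1% for mt-Co1, 92.5% for mt-Atp8 and 93.4% for mt-Cytb. With the copies counted as the same gene, these shares were 99.4%, 99.6%, 92.8% and 97.5% for mt-Co2, mt-Co3, mt-Atp6 and mt-Co1.

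The estimated counts of mt-Co2, mt-Co3 and mt-Atp6 were divided between the mitochondrial gene and the chromosome 1 copy in proportions that differed widely between libraries. Over the 34 libraries, the copies held from 6.41% to 100% of the summed mt-Co2 counts, from 5.58% to 91.5% of the mt-Co3 counts and from 57.1% to 95.9% of the mt-Atp6 counts, but only 0.0254% to 13.1% of the mt-Co1 counts. The 100% came from the pull-down library with slow ramp and long fragments, which had few counts. For mt-Co2 the copies held 83.2% ± 3.83 (SD, n = 9) in poly(A) libraries, 21.5% ± 11.8 (SD, n = 9) in digestion libraries and 27.9% in the heart library. For mt-Co3 they held 77.4% ± 9.21 (SD, n = 9) in poly(A) libraries and 22.02% ± 5.44 (SD, n = 9) in digestion libraries. Since nearly all of their bases are shared, each value below for these genes is the sum of the mitochondrial gene and its copies, called "with copies", and the value of the mitochondrial gene alone follows where it differs in direction or call. Reads of the mitochondrial mRNA and of a transcribed nuclear copy cannot be told apart in this sum.

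**Figure D1:**
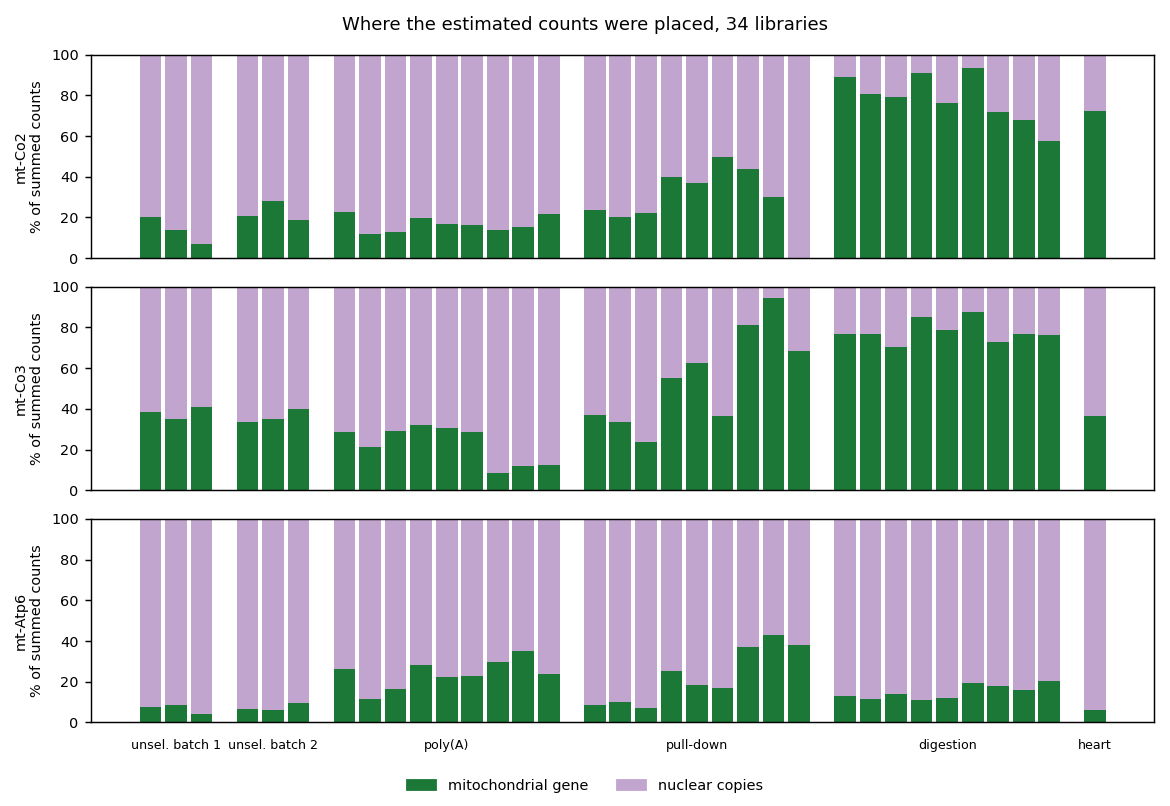
Share of the summed estimated counts (vertical axis, 0 to 100%) given to the mitochondrial gene (green) and to its nuclear copies (violet) for mt-Co2, mt-Co3 and mt-Atp6, 1 bar per library, with poly(A), pull-down and digestion libraries ordered from short through medium to long fragments. The green part of mt-Co2 is large in the digestion libraries and the heart library, small in the poly(A) libraries and 0 in 1 pull-down library.

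Values are given as percent of the remaining counts, which are the counts left after removal of 308 genes annotated as rRNA and of Lars2, a leucyl-tRNA synthetase gene whose counts followed those of the rRNA gene CT010467.1 across methods, although a blastn search found no match between its transcripts and an annotated rRNA transcript. Its removal therefore rests on its counts alone. Lars2 held 7.79% to 8.78% of all counts in unselected liver libraries and 0.00104% to 0.0361% in all selected libraries but 1. Where keeping Lars2 among the remaining counts turned a direction or a call against unselected RNA, that value is given beside the result. The remaining counts were 2.89 M to 3.1 M per library in unselected liver (M, 1000000 counts), 4.33 M in heart, 23.4 M to 41.3 M after poly(A) selection and 19.9 M to 30.1 M after digestion. The pull-down libraries held 19.9 M to 32.2 M, except for the library with slow ramp and long fragments, which had 0.85 M and in which CT010467.1 held 12.7% of all counts, against 0.00865% to 0.0216% in the other pull-down libraries. This library stood apart, and results that change without it are given both ways. Hepatocyte markers (7 of 7 detected) summed to 9.7% to 9.85% of the remaining counts in the batch 1 unselected liver libraries and 0.0363% in the heart library, and cardiomyocyte markers (7 of 7 detected in heart) to 5.09% in heart and at most 0.000166% in any unselected liver library.

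In unselected liver RNA the 6 genes with their copies made up 3.85%, 4% and 4.09% of the remaining counts in batch 1 and 4.23%, 4.79% and 4.44% in batch 2. mt-Co1 held the largest share in all 6 libraries. Scaled to the length of each gene, mt-Co1 stood at 1.15% of the remaining counts per kilobase in batch 1, mt-Co2 at 0.721%, mt-Atp6 at 0.684%, mt-Co3 at 0.678%, mt-Cytb at 0.592% and mt-Atp8 at 0.138%. In batch 2 the means per kilobase were 1.26% for mt-Co1, 0.824% for mt-Atp6, 0.818% for mt-Co2, 0.811% for mt-Co3, 0.646% for mt-Cytb and 0.191% for mt-Atp8, so that mt-Atp6, mt-Co2 and mt-Co3 lay close together in both batches. In digestion libraries of batch 2 mt-Co1 stood at 1.21% per kilobase and mt-Co3 at 0.858%, against 0.38% for mt-Atp6, 0.375% for mt-Co2, 0.295% for mt-Cytb and 0.0683% for mt-Atp8.

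The first comparison asked how each selection method changed the share of these mRNAs against unselected RNA of the same batch. In the fits against unselected RNA, both rRNA removal methods lowered mt-Cytb, mt-Atp6 with copies and mt-Atp8 by 2- to 4-fold. mt-Co3 with copies stayed within 1.3-fold. Digestion but not pull-down also lowered mt-Co2 with copies by more than 2-fold. For poly(A) selection no fitted change of a member with copies exceeded 1.6-fold. These sizes hold with Lars2 removed. With Lars2 kept, mt-Cytb, mt-Atp6 and mt-Co2 with copies were still called lower after digestion but by less (log2 -0.48, -0.49 and -0.55), and mt-Co3 with copies was called higher (0.66). The fits were edgeR quasi-likelihood tests over all genes, with ramp and length as covariates and Benjamini-Hochberg adjustment. They take 1 length effect for all methods, although length effects differed between methods (below), and unselected RNA has medium fragments only. Each fitted change is thus an average over lengths and need not hold at any single length. After poly(A) selection mt-Atp6 with copies averaged 0.232% with short and 0.435% with long fragments, and mt-Atp8 0.0208% and 0.0738%. A gene was called at an adjusted p below 0.05. Among the 6, with copies, 0 were called higher and 2 lower after poly(A) selection, where 48.4% of the 15510 genes tested were called, 18.0% higher and 30.3% lower. After pull-down 0 were called higher and 5 lower, against 31.4% of all genes (8.27% and 23.1%), and after digestion 0 higher and 4 lower, against 19.2% (13.8% and 5.42%). The median log2 change of the 6 was -0.22, -1.15 and -1.14 for the 3 methods, against -0.11, -0.12 and 0.12 over all genes. For the mitochondrial genes alone, 1 was called higher (mt-Atp6) and 2 lower after poly(A) selection (all genes: 18.1% and 30.3%), 0 and 3 after pull-down (8.26% and 23.1%) and 1 (mt-Co3) and 2 after digestion (13.8% and 5.41%). With TMM scaling the split of calls over all genes was 3950 higher and 3884 lower for poly(A) selection (2801 and 4706 without it), 2709 and 2366 for pull-down (1282 and 3584 without it), and 936 and 1229 for digestion (2142 and 840 without it). With Lars2 kept, it was 7832 and 1930, 8129 and 793, and 11127 and 184, and the median over all genes rose to 0.53, 0.53 and 0.78.

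**Figure D2:**
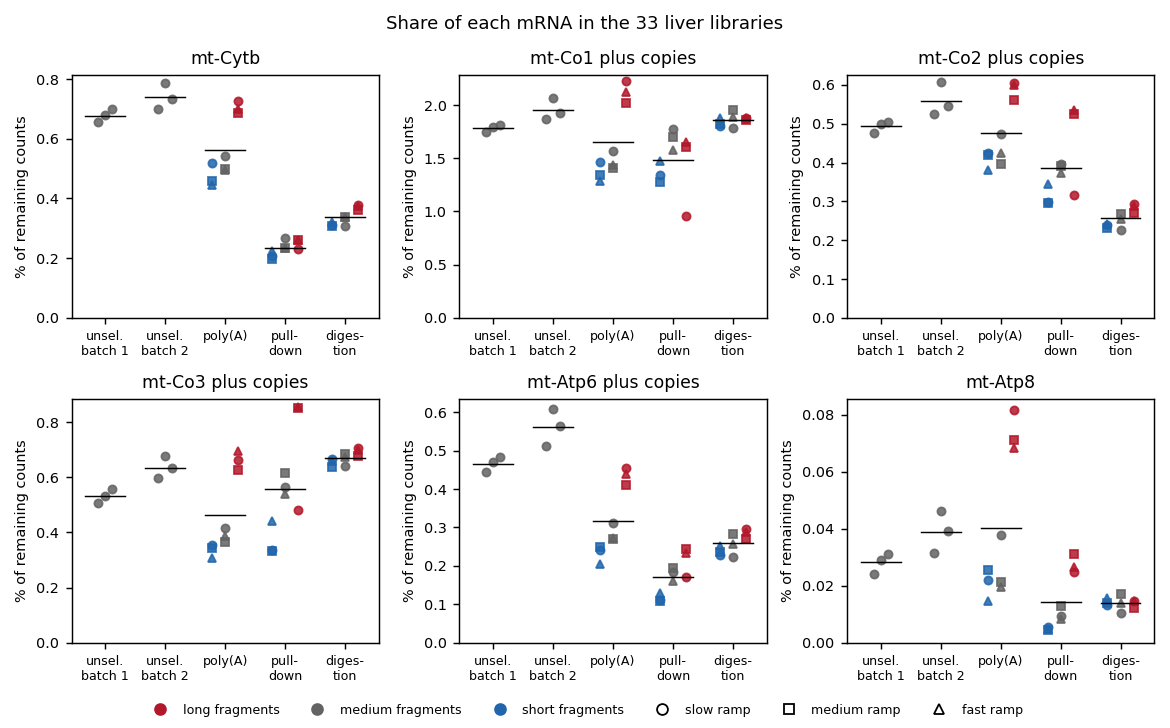
Percent of remaining counts (vertical axis, from 0) of each mRNA, with nuclear copies added where these exist, in the 33 liver libraries, 1 point per library, coloured by fragment length and shaped by ramp, with the group mean as a line. mt-Cytb, mt-Atp6 and mt-Atp8 of the 18 pull-down and digestion libraries lie below all 3 unselected libraries of batch 2, and long-fragment poly(A) libraries lie above the other poly(A) libraries.

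mt-Cytb, the complex III subunit and the one long member without a close nuclear copy, held 0.654%, 0.678% and 0.698% of the remaining counts in the unselected libraries of batch 1 and 0.699%, 0.786% and 0.732% in those of batch 2. After pull-down its lowest, median and highest values were 0.196%, 0.233% and 0.268%, and after digestion 0.308%, 0.339% and 0.377%. Neither range overlapped the unselected libraries. mt-Cytb was 3.17-fold lower after pull-down (log2 -1.66 ± 0.08 SE, edgeR adjusted p = 1.03e-16) and 2.2-fold lower after digestion (-1.14 ± 0.08, adjusted p = 6.81e-12). With Lars2 kept these were -1.01 and -0.48. After poly(A) selection the range was 0.447%, 0.52% and 0.728%, with 6 of 9 libraries below and 2 above all unselected ones. The fitted change after poly(A) selection was -0.29 ± 0.08 (adjusted p = 0.0046), but it was -0.15 (adjusted p = 0.164) with TMM scaling and turned to 0.35 (adjusted p = 0.000981) with Lars2 kept, so its direction depends on the scaling.

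Of the complex IV mRNAs, mt-Co1, which encodes the subunit that holds the oxygen-reducing centre, had fitted changes against unselected RNA of at most 1.31-fold with copies. With copies it held 1.74%, 1.79% and 1.81% in unselected batch 1 and 1.86%, 2.06% and 1.92% in batch 2, against 1.79%, 1.88% and 1.96% (lowest, median, highest) after digestion, which overlapped the unselected values. Digestion gave a change of -0.07 ± 0.15 (edgeR adjusted p = 0.82), which became 0.59 (adjusted p = 0.00127) with Lars2 kept. All 9 pull-down libraries (0.955%, 1.57% and 1.78%) were below the unselected ones, a 1.31-fold difference (-0.39 ± 0.15, adjusted p = 0.0396). That call did not hold with TMM scaling (-0.22, adjusted p = 0.298), nor without any single unselected library of batch 2 (adjusted p = 0.0624 to 0.136), and the sign turned with Lars2 kept (0.26, adjusted p = 0.155). Without the low-depth library it was -0.29 (adjusted p = 0.0354). Poly(A) selection gave -0.12 ± 0.15 (edgeR adjusted p = 0.526) for mt-Co1 with copies, 0.02 with TMM scaling and 0.51 (adjusted p = 0.00545) with Lars2 kept. These values average opposite shifts. The short (mean 1.37%) and medium poly(A) libraries lay below all unselected libraries of batch 1, and the long ones (mean 2.12%) above them.

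mt-Co2, which encodes the subunit that receives electrons from cytochrome c, separated the 2 rRNA removal methods. With copies it held 0.525%, 0.608% and 0.547% in unselected batch 2, 0.295%, 0.374% and 0.536% (lowest, median, highest) after pull-down, and 0.226%, 0.255% and 0.292% after digestion. All 9 digestion libraries lay below every pull-down and unselected library. Against unselected RNA, mt-Co2 with copies was 2.31-fold lower after digestion (log2 -1.21 ± 0.11, edgeR adjusted p = 1.52e-09; -0.55 with Lars2 kept) and 1.55-fold lower after pull-down (-0.63 ± 0.11, adjusted p = 3.55e-05), the latter turning to 0.02 (adjusted p = 0.907) with Lars2 kept. The mitochondrial gene alone gave the opposite sign for digestion, 0.77 ± 0.53 (adjusted p = 0.348), and the plot of the split shows that the copies held fewer of the mt-Co2 counts in digestion than in unselected libraries. For pull-down the gene alone gave -0.02 ± 0.51 (adjusted p = 0.986), without a call. With Lars2 kept the gene alone gave 0.63 (adjusted p = 0.318) for pull-down and was called higher for digestion (1.43, adjusted p = 0.0208). Poly(A) selection gave -0.15 ± 0.11 (edgeR adjusted p = 0.284) with copies, 0.48 (adjusted p = 0.000724) with Lars2 kept, and the opposite sign for the gene alone (0.36 ± 0.53, adjusted p = 0.615).

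mt-Co3 with copies, the third core subunit of complex IV, was called against unselected RNA in none of the 3 methods, in fits that average over fragment lengths. It held 0.597%, 0.677% and 0.633% in unselected batch 2, 0.334%, 0.538% and 0.857% (lowest, median, highest) after pull-down and 0.636%, 0.676% and 0.708% after digestion. After poly(A) selection the short (mean 0.336%) and medium libraries lay below all unselected libraries of batch 1. The long ones (mean 0.662%) lay above them. The changes were -0.35 ± 0.18 after poly(A) selection (edgeR adjusted p = 0.108), -0.33 ± 0.18 after pull-down (adjusted p = 0.17) and 0.01 ± 0.18 after digestion (adjusted p = 0.986). With Lars2 kept they were 0.29, 0.32 and 0.66, the last of them called (adjusted p = 0.00186). For the mitochondrial gene alone, mt-Co3 was called 2.15-fold lower after poly(A) selection (-1.10 ± 0.39, adjusted p = 0.0191) and 2.27-fold higher after digestion (1.19 ± 0.42, adjusted p = 0.0449). For pull-down the gene alone gave 0.37 ± 0.42 (adjusted p = 0.568), the opposite sign to the sum, and was called higher with Lars2 kept (1.02, adjusted p = 0.0428). The sum with copies gave none of these calls. The poly(A) call was lost without replicate 3 of unselected batch 1 and with Lars2 kept (-0.47, adjusted p = 0.306). The digestion call was lost without any 1 of the 6 unselected libraries, with TMM scaling (1.09, adjusted p = 0.0794) and with DESeq2 (1.05, adjusted p = 0.0778).

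Both complex V genes, which are read from 1 mRNA, had lower shares after rRNA removal. mt-Atp6, which encodes the membrane subunit that forms the proton path, held with copies 0.512%, 0.609% and 0.564% in unselected batch 2, 0.109%, 0.171% and 0.244% (lowest, median, highest) after pull-down and 0.222%, 0.255% and 0.296% after digestion, with no overlap. It was 3.47-fold lower after pull-down (-1.80 ± 0.14, edgeR adjusted p = 3.11e-12) and 2.22-fold lower after digestion (-1.15 ± 0.14, adjusted p = 3.11e-07), and with Lars2 kept these were -1.14 and -0.49, both still called. After poly(A) selection 8 of 9 libraries (0.205%, 0.273% and 0.455%) lay below the unselected 0.443%, 0.47% and 0.483%, a change of -0.64 ± 0.14 (adjusted p = 0.00027) that was no longer called with Lars2 kept (adjusted p = 0.985). The mitochondrial gene alone gave 1.08 ± 0.37 for poly(A) selection (adjusted p = 0.0175, lost without replicate 3 of unselected batch 1), the opposite direction, and -0.42 (adjusted p = 0.431) and -0.16 (adjusted p = 0.814) for pull-down and digestion, which turned to 0.23 (adjusted p = 0.606) and 0.49 (adjusted p = 0.221) with Lars2 kept.

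mt-Atp8, the shortest member and a small subunit next to subunit 6, held 0.0315%, 0.0462% and 0.0391% in unselected batch 2, 0.00452%, 0.00941% and 0.0312% (lowest, median, highest) after pull-down and 0.0103%, 0.014% and 0.0169% after digestion. Every pull-down and digestion library was below the unselected ones. It was 3.97-fold lower after pull-down (-1.99 ± 0.38, edgeR adjusted p = 8.79e-05; -1.34 with Lars2 kept) and 3.03-fold lower after digestion (-1.60 ± 0.37, adjusted p = 0.0027; -0.94 with Lars2 kept). The pull-down fold averages over lengths, since pull-down libraries held a mean of 0.00488% with short and 0.0275% with long fragments. Poly(A) libraries ranged from 0.0146% to 0.0816% and overlapped the unselected 0.0241%, 0.0292% and 0.0312%, with a change of 0.06 ± 0.38 (edgeR adjusted p = 0.922).

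**Figure D3:**
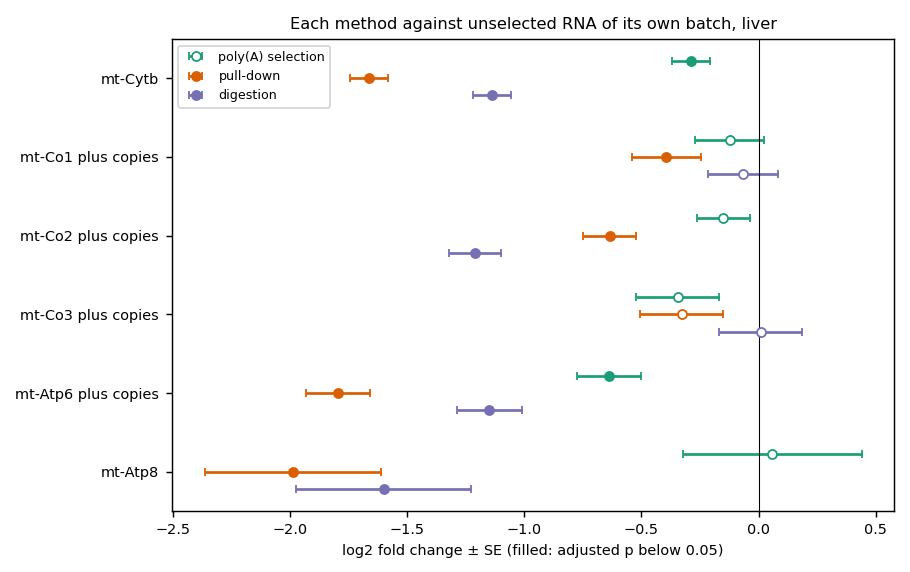
Fitted log2 fold change (horizontal axis) of each mRNA, with copies added, for poly(A) selection, pull-down and digestion against unselected liver RNA of the same batch; bars are ± 1 standard error and filled points have an adjusted p below 0.05. mt-Cytb, mt-Atp6 and mt-Atp8 lie between -1.99 and -1.14 for pull-down and digestion, and mt-Co2 at -1.21 for digestion.

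The direct comparison of the selected libraries, with 9 against 9 and the ramp and length matched, ordered the methods differently for different members. mt-Cytb was higher after poly(A) selection than after digestion (1.65-fold, log2 0.72 ± 0.05, edgeR adjusted p = 4.92e-14) and higher after digestion than after pull-down (1.44-fold, 0.52 ± 0.05, adjusted p = 1.32e-10), in 9 of 9 matched pairs each time. mt-Co2 with copies was higher after poly(A) selection than after pull-down (0.30 ± 0.07, adjusted p = 0.000315) and lower after digestion than after pull-down (-0.58 ± 0.07, adjusted p = 1.25e-08). mt-Co3 with copies ran the other way and was lowest after poly(A) selection. Against digestion it gave -0.61 ± 0.11 (edgeR adjusted p = 8.5e-06), lower in 9 of 9 pairs. Against pull-down it gave -0.28 ± 0.11 (edgeR adjusted p = 0.0254), lower in 6 of 9 pairs and higher in 3. Against unselected RNA of their own batches, poly(A) selection and pull-down gave similar changes (above). These methods were in different batches, so the -0.28 cannot be told apart from a batch difference. mt-Atp6 with copies was 1.85-fold higher after poly(A) selection than after pull-down (0.89 ± 0.09, adjusted p = 1.43e-10) and mt-Atp8 2.99-fold higher (1.58 ± 0.23, adjusted p = 5.79e-07).

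With copies, 4 of the 6 were called higher and 1 lower after digestion than after pull-down, where 73.2% of all genes were called, 54.0% higher and 19.3% lower. For poly(A) selection against pull-down the counts were 4 and 1 (all genes: 73.1%, with 37.9% and 35.2%), and against digestion 4 and 1 (81.2%, with 25.4% and 55.7%). For the mitochondrial genes alone the counts were 4 and 0, 3 and 1, and 3 and 3. With TMM scaling, digestion against pull-down gave 5229 genes higher and 5706 lower (8373 and 2987 without it), and the differences of mt-Co1 with copies (0.33 ± 0.09, edgeR adjusted p = 0.00192) and mt-Co3 with copies (0.34 ± 0.11, adjusted p = 0.00697) were no longer called (0.05, adjusted p = 0.624, and 0.06, adjusted p = 0.628). For poly(A) selection against digestion TMM scaling gave 6001 and 6518 (3948 and 8645 without it), and mt-Co1 with copies moved from -0.19 to 0.07, neither called, while mt-Co1 alone was called lower (-0.24 ± 0.10, adjusted p = 0.0222). mt-Atp6 with copies was called higher after digestion than after pull-down (0.65), and mt-Atp6 alone was not (0.26 ± 0.22, adjusted p = 0.31). The mitochondrial gene alone reversed mt-Co2 in all 3 comparisons: it was higher after digestion than after pull-down (0.79 ± 0.32, adjusted p = 0.0278), lower after poly(A) selection than after digestion (-1.35 ± 0.32, adjusted p = 0.000356), and at -0.56 (adjusted p = 0.118) for poly(A) selection against pull-down. Between the 2 batches of unselected liver RNA, 0 of 6 members and 0 of 15516 genes (0% of all genes) were called by edgeR (819 genes at an unadjusted p below 0.05, and 19 by DESeq2). Fitted on the 6 unselected libraries alone, 3 members (mt-Co1, mt-Co2 and mt-Atp8) were called higher in batch 2, with 22 of 10638 genes higher (0.207%) and 15 lower (0.141%). Each member with copies was higher in all 3 libraries of batch 2 than in any of batch 1, by 1.09-fold (mt-Cytb and mt-Co1) to 1.38-fold (mt-Atp8).

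The length comparison asked whether longer library fragments changed the share of these mRNAs within each method. In poly(A) libraries all 6 with copies rose with fragment length, and mt-Atp8 rose most. In pull-down libraries 5 rose, mt-Atp8 again the most. In digestion libraries only mt-Cytb was called by the fit over all selected libraries. There mt-Co2, mt-Co3 and mt-Atp6 with copies were also higher with long fragments in 3 of 3 matched pairs, without overlap. Their means differed by 1.06- to 1.20-fold. Digestion libraries fitted alone gave more calls for the mitochondrial genes alone (see the processing section). Of all genes, 51.1% were called between long and short poly(A) libraries (21.9% higher in long and 29.2% lower), 34.3% in pull-down libraries (15.3% and 18.9%) and 5.84% in digestion libraries (3.51% and 2.33%). The median log2 change of the 6 was 0.77, 0.73 and 0.17, against -0.05, -0.03 and 0.00 over all genes. For the mitochondrial genes alone 4, 4 and 2 were called higher and 0 lower, with 51.1% (21.8% and 29.2%), 34.2% (15.3% and 18.9%) and 5.87% (3.52% and 2.35%) of all genes as background. The difference of the length effects between methods, an interaction term, was called with copies for 0 higher and 5 lower in digestion against poly(A) selection (33.8% of all genes, 19.2% and 14.6%), for 3 higher and 0 lower in pull-down against digestion (15.0%, with 6.86% and 8.18%), and for none in pull-down against poly(A) selection (3.75%, with 1.61% and 2.13%). Without the low-depth pull-down library these counts with copies were 0 and 6 (16.3% of all genes lower), 5 and 0 (10.6% higher) and 0 and 1 (mt-Co1; 4.14% lower). For the genes alone, with that library, the counts were 0 and 4 (33.8%), 3 and 0 (15.1%, with 6.87% and 8.22%), and 2 and 0 (mt-Atp6 and mt-Co3; 3.77%, with 1.63% and 2.14%).

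In poly(A) libraries mt-Atp8 held 0.0816%, 0.0712% and 0.0684% of the remaining counts with long fragments and 0.022%, 0.0257% and 0.0146% with short ones (slow, medium and fast ramp), a 3.59-fold rise (log2 1.84 ± 0.21, edgeR adjusted p = 3.56e-07). In pull-down libraries it went from 0.0053%, 0.00452% and 0.00481% to 0.0247%, 0.0312% and 0.0266%, a 5.83-fold rise (2.54 ± 0.24, adjusted p = 6.6e-08). Neither pair of groups overlapped. In digestion libraries mt-Atp8 stood at 0.0132%, 0.0138% and 0.0158% with short and at 0.0145%, 0.0122% and 0.0147% with long fragments, which overlapped (-0.05 ± 0.21, adjusted p = 0.946). The difference of the length effects was called for digestion against poly(A) selection (-1.89 ± 0.29, adjusted p = 7.55e-05) and for pull-down against digestion (2.59 ± 0.32, adjusted p = 1.87e-05), but not for pull-down against poly(A) selection (0.70 ± 0.31, adjusted p = 0.223).

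mt-Co3 and mt-Atp6 with copies rose by 1.87- to 1.97-fold in poly(A) and in pull-down libraries. mt-Co3 with copies was 0.356%, 0.345% and 0.308% with short and 0.662%, 0.627% and 0.696% with long fragments after poly(A) selection (0.97 ± 0.14, edgeR adjusted p = 4.22e-06). After pull-down it was 0.338%, 0.334% and 0.441% with short and 0.481%, 0.851% and 0.857% with long fragments (0.98 ± 0.14, adjusted p = 1.36e-05), the 0.481% being the low-depth library. After digestion it was 0.667%, 0.636% and 0.659% against 0.708%, 0.678% and 0.7% (0.09 ± 0.13, adjusted p = 0.815). mt-Atp6 with copies changed by 0.91 ± 0.11 after poly(A) selection (adjusted p = 7.94e-07), 0.90 ± 0.11 after pull-down (adjusted p = 3.34e-06) and 0.26 ± 0.11 after digestion (adjusted p = 0.199). Both length effects were smaller after digestion than after poly(A) selection, by -0.89 ± 0.19 for mt-Co3 (adjusted p = 0.00127) and -0.65 ± 0.15 for mt-Atp6 (adjusted p = 0.00272), and smaller than after pull-down by 0.89 ± 0.19 (adjusted p = 0.00349) and 0.64 ± 0.16 (adjusted p = 0.00806).

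The mitochondrial genes alone gave another picture of the same counts. mt-Co3 alone changed by -0.28 ± 0.24 between short and long fragments after poly(A) selection (edgeR adjusted p = 0.347) and by 2.36 ± 0.25 after pull-down (adjusted p = 4.55e-07), and mt-Atp6 alone by 1.67 ± 0.19 (adjusted p = 5.11e-07), 3.13 ± 0.21 (adjusted p = 4.21e-10) and, after digestion, 0.75 ± 0.19 (adjusted p = 0.0213). The share placed on the copies moved with fragment length too. mt-Co2 alone was called in no method (0.71 ± 0.51, adjusted p = 0.268, in poly(A), 0.94 ± 0.52, adjusted p = 0.168, in pull-down and -0.08 ± 0.51, adjusted p = 0.966, in digestion libraries). The digestion minus poly(A) difference of the mt-Co3 length effect was 0.39 ± 0.34 (adjusted p = 0.41) for the gene alone, without the call of the sum. For mt-Co3 the copies held 5.58% to 31.7% of the counts in long pull-down libraries (at most 18.9% without the low-depth library) and 62.9% to 76.3% in short ones. In poly(A) libraries they held 87.5% to 91.5% with long and 71.1% to 78.8% with short fragments. For mt-Atp6 they held 57.1% to 63.1% in long and 90.01% to 92.8% in short pull-down libraries.

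mt-Cytb rose with fragment length in all 3 methods, by 1.48-fold after poly(A) selection (0.57 ± 0.07, edgeR adjusted p = 5.07e-07), 1.21-fold after pull-down (0.27 ± 0.07, adjusted p = 0.00297) and 1.18-fold after digestion (0.24 ± 0.07, adjusted p = 0.0292), without overlap of long and short libraries in any. mt-Co1 with copies rose after poly(A) selection, from 1.46%, 1.34% and 1.29% to 2.22%, 2.02% and 2.12% (0.64 ± 0.12, adjusted p = 0.00014), and this rise was larger than after digestion (difference -0.61 ± 0.17, adjusted p = 0.00889). After pull-down mt-Co1 with copies gave 0.04 ± 0.12 (adjusted p = 0.834), and without the low-depth library 0.27 (adjusted p = 0.000471). mt-Co2 with copies rose by 0.53 ± 0.12 after poly(A) selection (adjusted p = 0.000891) and by 0.56 ± 0.12 after pull-down (adjusted p = 0.00118), and its change after digestion, 0.26 ± 0.12 (adjusted p = 0.243), was called only without the low-depth library (0.26, adjusted p = 0.00931). Without that library the pull-down changes of mt-Co3 and mt-Atp6 with copies were 1.21 and 1.03.

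**Figure D4:**
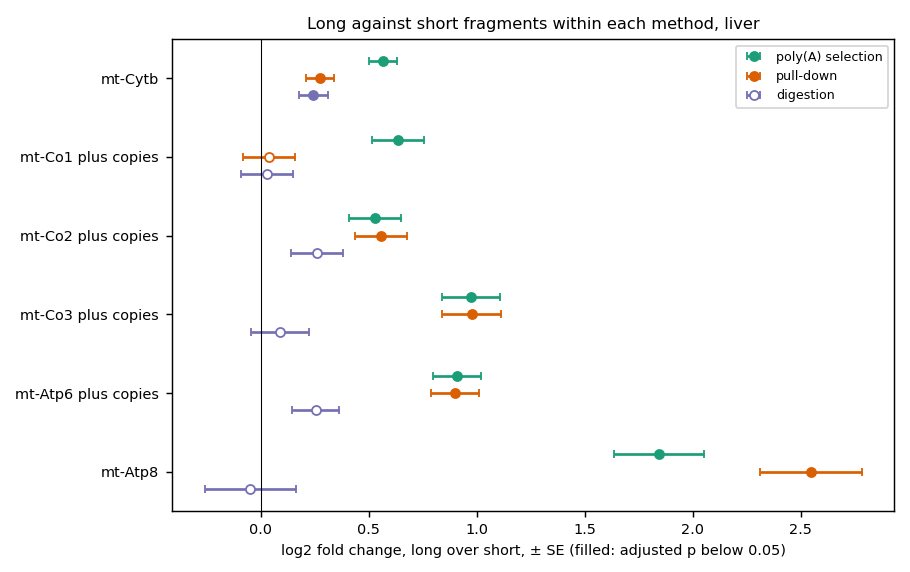
Fitted log2 fold change (horizontal axis) of long over short fragments for each mRNA, with copies added, in poly(A), pull-down and digestion libraries; bars are ± 1 standard error and filled points have an adjusted p below 0.05. mt-Atp8 stands at 1.84 and 2.54 in poly(A) and pull-down libraries and at -0.05 in digestion libraries, and mt-Co1 is called only in poly(A) libraries.

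The ramp rate of the PCR gave no call among the 6, with or without copies, and 12 of 15439 genes were called in all (0.0777%, of which 0.00648% higher and 0.0712% lower with the fast ramp; 0.0778%, 0.00648% and 0.0713% with copies). With copies the fast over slow changes ranged from -0.18 ± 0.12 (mt-Atp8) to 0.09 ± 0.08 (mt-Co3), with edgeR adjusted p-values from 0.782 to 0.984.

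The ratio of mt-Atp8 to mt-Atp6 counts follows the 2 overlapping reading frames of 1 mRNA, and it was compared over matched libraries with an exact 2-sided sign-flip permutation test, adjusted over the 5 comparisons made. For the mitochondrial genes alone the ratio averaged 0.514 ± 0.211 (SD, n = 9) after poly(A) selection, 0.374 ± 0.127 after pull-down and 0.381 ± 0.115 after digestion, and no exact permutation test passed (adjusted p = 0.283 to 0.883). With copies the ratio was 0.116 ± 0.0433, 0.0758 ± 0.0412 and 0.0539 ± 0.0062. Poly(A) libraries then exceeded pull-down libraries in 9 of 9 pairs (log2 difference 0.71, exact permutation p = 0.00391, the smallest that 9 pairs allow, adjusted p = 0.00977) and digestion libraries in 9 of 9 (1.03, exact permutation p = 0.00391, adjusted p = 0.00977). Long against short fragments gave 0.76 with copies, higher in 6 of 9 pairs (exact permutation adjusted p = 0.0586), the 3 digestion pairs being the lower ones. In unselected liver the ratio with copies was 0.0603 ± 0.00531 (SD, n = 3) in batch 1 and 0.069 ± 0.00719 in batch 2, and it was 0.0716 in heart.

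Heart and liver were compared in unselected RNA of batch 1, where 1 heart library stands against 3 liver libraries of the same animal, so there is no test. In heart the 6 genes with copies made up 16.8% of the remaining counts (Wilson 95% interval 16.8% to 16.8%, counting error only), against 3.98% ± 0.121 (SD, n = 3) in liver, a ratio of 4.22. mt-Co1 held 7.71% in heart and 1.78% ± 0.0357 in liver (4.32-fold), mt-Cytb 2.74% and 0.677% ± 0.022 (4.05-fold), mt-Co2 with copies 2.21% and 0.493% ± 0.0153 (4.47-fold) and mt-Co3 with copies 2.38% and 0.531% ± 0.0255 (4.47-fold). mt-Atp6 with copies held 1.64% and 0.466% ± 0.0204 (3.52-fold), and mt-Atp8 0.117% (0.114% to 0.121%) and 0.0282% ± 0.00366 (4.17-fold). All 6 were thus at least 2-fold higher in heart, where 24.7% of 11693 genes were at least 2-fold higher and 22.1% at least 2-fold lower, and 5 of 6 at least 4-fold higher, against 12.8%. The second count was 3 of 6 without replicate 1 of unselected batch 1 and 4 of 6 with TMM scaling, since mt-Cytb and mt-Atp8 lay close to 4-fold. The heart value lay above all 3 liver values for every member. mt-Co2 alone gave 24-fold, the one member whose ratio moved by more than 1.5 times between the 2 ways of counting: its copies held 86.4% ± 6.72 (SD, n = 3) of the summed mt-Co2 counts in batch 1 liver but 27.9% in heart. Markers of other cell types differed too. The 3 fibroblast and stellate markers summed to 0.059% of the remaining counts in heart, against 0.0118% to 0.0138% in the liver libraries, with 3 of 3 at least 2-fold higher. The 4 endothelial markers summed to 0.0619% against 0.0254% to 0.0286% (3 higher, 1 lower), the 5 erythroid markers to 0.085% against 0.0503% to 0.0521% (3 higher, 1 lower), and the 4 Kupffer cell markers to 0.00152% against a liver mean of 0.0158% (0 higher, 3 lower). Of the 3 cholangiocyte markers Krt19 and Epcam were at 0 in heart. The part of these cells in the result was not tested. More mitochondria or muscle cells and more mitochondrial RNA per cell cannot be told apart in bulk RNA.

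**Figure D5:**
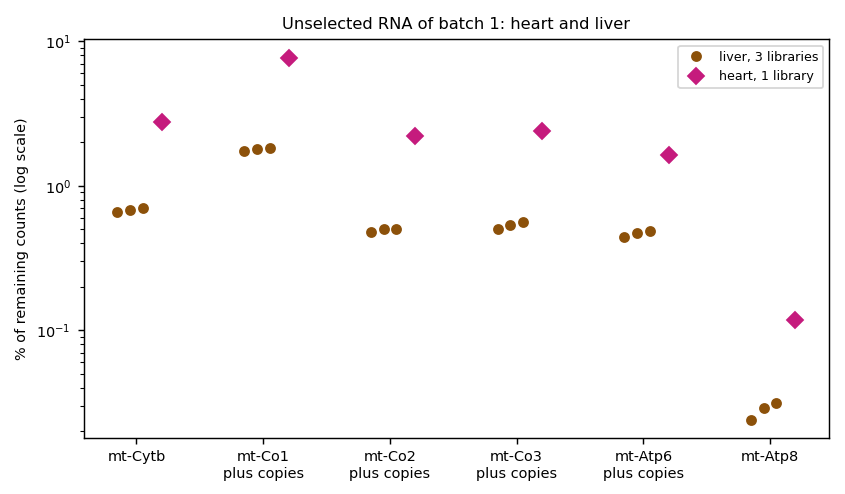
Percent of remaining counts (vertical axis, log scale) of each mRNA, with copies added where these exist, in the 3 unselected liver libraries (circles) and the 1 unselected heart library (diamond) of batch 1. The heart value lies 3.52 to 4.47 times above the liver mean for every mRNA.

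The 7 mitochondrial genes of complex I (NADH dehydrogenase) and the nuclear subunits of the same complexes were followed from lists fixed for this comparison. Nuclear copies of the complex I genes were not searched for, so their values are for the genes alone. How far their reads were placed on such copies was not tested. In unselected liver the complex I mRNAs summed to 1.83% ± 0.0645 (SD, n = 3) of the remaining counts in batch 1 and 2.08% ± 0.164 in batch 2, and to 0.4% ± 0.105 (SD, n = 9) after pull-down, 0.815% ± 0.0976 after digestion and 1.29% ± 0.345 after poly(A) selection. Of the 7, edgeR called 0 higher and 6 lower after pull-down (all genes: 8.26% and 23.1%), 0 and 5 after digestion (13.8% and 5.41%), and 0 and 6 after poly(A) selection (18.1% and 30.3%). Their median log2 change was -3.15, -1.40 and -0.52. With Lars2 kept the calls were 0 and 6 (all genes: 52.5% and 5.12%), 1 and 5 (71.9% and 1.19%), and 1 and 2 (50.6% and 12.5%), and the medians -2.50, -0.74 and 0.12, so the poly(A) median changed sign. With TMM scaling the calls were 0 and 6 (all genes: 17.5% and 15.2%), 0 and 5 (6.03% and 7.92%), and 0 and 5 (25.5% and 25.0%), with medians of -2.98, -1.50 and -0.38. mt-Nd4 was lower by -3.15 ± 0.11 after pull-down (adjusted p = 5.43e-20), against -1.99 for mt-Atp8, the member that fell most, and mt-Nd6, the one mRNA copied from the other strand, by -4.84 ± 0.33 after poly(A) selection (adjusted p = 2.02e-13). In long against short fragments 7 of 7 rose in poly(A) libraries (21.8% of all genes higher) and in pull-down libraries (15.3%), and 2 of 7 (mt-Nd1 and mt-Nd4) in digestion libraries (3.52%), where 1 of 7 was called with Lars2 kept (3.35%). In heart all 7 were at least 2-fold higher than in liver (24.7% of all genes), with a median ratio of 4.08.

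The nuclear subunits were counted in the same fits, where 18.1% of all genes were called higher and 30.3% lower after poly(A) selection, 8.26% and 23.1% after pull-down, and 13.8% and 5.41% after digestion. Of 9 nuclear complex III genes, 9 were called higher after poly(A) selection, 6 higher and 1 lower after pull-down, and 2 higher and 2 lower after digestion. The hinge protein gene Uqcrh changed by 1.07 ± 0.09 after poly(A) selection and by -0.99 ± 0.09 after digestion. Of 13 complex IV genes that could be tested, of 16 listed, 9 and 0, 8 and 0, and 1 and 3 were called higher and lower in the same order. Cox7c rose in all 3 (0.92 ± 0.10, 0.63 ± 0.10 and 0.60 ± 0.10) and Cox6c fell after digestion (-1.41 ± 0.08). Of 16 complex V genes the calls were 14 and 0, 10 and 2, and 1 and 9. Atp5k, a small membrane subunit of ATP synthase, changed by 0.92 ± 0.11, 0.72 ± 0.11 and -2.42 ± 0.12. The list medians were 0.57, 0.62 and 0.55 after poly(A) selection, 0.31, 0.45 and 0.33 after pull-down, and 0.01, -0.08 and -0.33 after digestion for complexes III, IV and V. The direction of the digestion values depended on the denominator. With Lars2 kept, complex III had 7 called higher and 1 lower after digestion, complex IV 10 and 1 and complex V 10 and 3, with medians of 0.66, 0.58 and 0.33, against 0.78 over all genes, of which 71.9% were then called higher and 1.19% lower. In the same fit the calls were 9 and 0, 12 and 0, and 15 and 0 after poly(A) selection (all genes: 50.6% and 12.5%), and 8 and 0, 12 and 0, and 14 and 0 after pull-down (52.5% and 5.12%). With TMM scaling the calls after digestion were 2 and 2, 1 and 4, and 1 and 11 (all genes: 6.03% and 7.92%), with medians of -0.09, -0.18 and -0.43. Of 26 genes for the expression of mitochondrial DNA and assembly of its products that could be tested, of 27 listed, 10 were called higher and 3 lower after poly(A) selection, 3 and 2 after pull-down and 5 and 3 after digestion. These counts became 23 and 0, 23 and 0, and 24 and 0 with Lars2 kept, where 50.6%, 52.5% and 71.9% of all genes were called higher, and 14 and 0, 8 and 1, and 2 and 4 with TMM scaling, where 25.5%, 17.5% and 6.03% were.

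In heart against liver, 8 of 9 nuclear complex III genes, 11 of 14 complex IV genes and 14 of 15 complex V genes were at least 2-fold higher, with median ratios of 2.80, 3.29 and 2.92, where 24.7% of all genes were at least 2-fold higher. As for all genes, only genes with at least 40 counts over the 4 libraries were counted, with 0.5 added to each count. This left out Cox4i2, Cox6b2 and Atp5o. Of 25 genes of mitochondrial gene expression 7 were at least 2-fold higher (median ratio 1.35), a share near that of all genes. Complex IV also holds subunits with tissue forms. The heart and muscle forms Cox6a2 and Cox8b were at 0 counts in all 3 liver libraries and at 2899 and 956 counts in heart, Cox7a1 had 1488 counts in heart and 2, 2 and 5 in the liver libraries, and the widely expressed forms Cox6a1 and Cox8a were at 0.25 and 0.413 of their liver level, whereas Cox7a2, the widely expressed form beside Cox7a1, was 1.45-fold higher in heart.

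Across the 33 liver libraries the members did not all move together. The correlation of log2 shares with copies was 0.918 for mt-Cytb and mt-Atp6, 0.72 for mt-Co1 and mt-Co3, but 0.0293 for mt-Co2 and mt-Co3 and 0.0477 for mt-Cytb and mt-Co3. These are descriptions over libraries that share 1 RNA, method and scaling. Of 9777 genes with a mean of at least 100 counts, the 5 most correlated with the summed share with copies were 4732465J04Rik (Pearson r = 0.882), Luc7l3 (0.878), Rala (0.877), F9 (0.869) and Tiprl (0.869). mt-Nd1 (0.865) ranked 7th, and the other complex I mRNAs between 65th (mt-Nd2) and 833rd (mt-Nd3). For the mitochondrial genes alone the first was F9 (0.928), and mt-Nd1 fell to rank 1242 (0.6).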

How the data were processed

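Gene-level estimated counts of the 34 libraries were used as deposited by the authors. The submitters' processing notes name Salmon 1.9.0, UMI-tools 1.1.1, R 4.4.0 and the build GRCm38, without their role or order. Of the 51368 gene IDs, 50896 were matched to GENCODE M21 (GRCm38); the other 472 held at most 0.0452% of the counts of a library. Salmon divides reads that fit several genes among them, so the counts of genes with identical copies are estimates of that division. From the deposited estimated counts, 308 genes annotated as rRNA and Lars2 were removed, and shares were computed from the rest. Nuclear copies were annotated genes matching a member at 95% identity or more over at least 100 bases.

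Counts were rounded and tested with edgeR 4.0.16 (R 4.3.3; quasi-likelihood test, filterByExpr, Benjamini-Hochberg adjustment over all genes, threshold 0.05, library size as the remaining counts). One model took the 33 liver libraries, and another the 27 selected libraries with length within each method. The models were tested on simulated data. Standard errors were taken from the fold change and its F statistic. Alternatives were TMM scaling, DESeq2 1.42.0, other denominators, no filter, a 2-fold minimum, each method alone, a replicate block, and leaving out libraries. Copies added to the members, combined with further alternatives, were tried partly after the data were seen. Ratios were compared by exact permutation tests that went through every pattern of sign flips, and heart with liver without a test, since heart has 1 library.

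The genes named are the 6 members, the 7 mitochondrial complex I genes, the copies, the 5 most correlated genes, and up to 2 called genes with the highest and 2 with the lowest change of each nuclear list. The tissue forms of complex IV subunits named for heart, Cox4i2, Cox6b2 and Atp5o fall outside this rule and were chosen after their values were seen. The members and lists were chosen with earlier results of these data known. Intervals cover counting error only. No 2 unselected libraries of a batch agreed within sampling noise (chi-square per degree of freedom 1.40 to 3.85), so each was counted once.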

Additional observations from a re-analysis of the deposited data

Results flagged for a closer look

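In 36 groups of 4 to 10 libraries tested for a library far from the others, 1 stood apart. Chance flags about 1 in 20 groups, so 1 of 36 is no more than chance gives. The poly(A) library with slow ramp and long fragments held 0.131% of the remaining counts at mt-Co2 alone, and the next library 0.0867%. With copies it held 0.604%, beside 0.601% in the poly(A) library with fast ramp and long fragments.

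The length effect (long over short fragments, log2) differed between methods for several members by the edgeR interaction term. Digestion minus poly(A) selection gave -0.65 for mt-Co1 (adjusted p = 0.00817), -1.89 for mt-Atp8 (adjusted p = 7.55e-05), -0.92 for mt-Atp6 (adjusted p = 0.0119) and -0.32 for mt-Cytb (adjusted p = 0.0109). With copies it was -0.61 for mt-Co1, -0.65 for mt-Atp6 and -0.89 for mt-Co3. Pull-down minus digestion gave 2.59 for mt-Atp8 (adjusted p = 1.87e-05), 2.38 for mt-Atp6 alone and 2.25 for mt-Co3 alone, and with copies 0.64 for mt-Atp6 and 0.89 for mt-Co3. Pull-down minus poly(A) selection gave 1.46 for mt-Atp6 alone (adjusted p = 0.00435) and 2.64 for mt-Co3 alone (adjusted p = 9.87e-05), and neither was called with copies.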

How the results depend on the processing

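Of the gene-level values recomputed under the settings listed at the start, 745 kept direction and call, 35 gained a call, 27 lost one, 27 changed sign and 6 values without a test moved. Under alternatives added after seeing the data, 468 kept both, 9 gained a call, 8 lost one and 19 changed sign. Of the summary results (counts of members called, count ratios, summed shares and heart over liver), 269 stayed the same, 57 moved, 2 changed sign and 2 gained a call. Under the added alternatives 157 of these stayed the same and 11 moved. Except where stated, the cause of a change was not tested. Unless a share of all genes stands beside it, a count of members called below shows only how calls moved. Such a count cannot be read against the background of all genes.

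With copies added, the genes alone changed sign against unselected RNA for mt-Co2 after poly(A) selection (-0.15) and digestion (-1.21), mt-Atp6 after poly(A) selection (-0.64) and mt-Co3 after pull-down (-0.33); between methods for mt-Co2 (-0.58 for digestion against pull-down, 0.30 and 0.88 for poly(A) against pull-down and digestion); and between lengths for mt-Co3 in poly(A) (0.97) and mt-Co2 in digestion (0.26) libraries. Differences of length effects turned to -0.0098 (mt-Atp6, pull-down minus poly(A)) and -0.89 (mt-Co3, digestion minus poly(A)). Counts of members called became 0 higher for poly(A) and digestion and 5 and 4 lower for pull-down and digestion against unselected RNA; 1 lower for digestion against pull-down and for poly(A) against digestion; 1 higher for length in digestion; and 0 higher for pull-down minus poly(A). The mt-Atp8 to mt-Atp6 ratio moved to 0.76 (long against short), -0.32 (digestion against pull-down), 0.71 and 1.03 (poly(A) against pull-down and digestion). The summed share moved to 3.98% and 4.49% (unselected batches 1 and 2), 3.51% (poly(A)), 2.85% (pull-down), 3.40% (digestion) and 16.8% (heart), and heart over liver to 2.08 (log2).

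With Lars2 kept, changes against unselected RNA turned positive for the genes alone: mt-Co1 0.37, 0.16 and 0.51 (poly(A), pull-down, digestion), mt-Cytb 0.35 (poly(A)), mt-Co2 0.63 (pull-down), and mt-Atp6 0.23 and 0.49 (pull-down, digestion). With copies they turned for mt-Co1 (0.51, 0.26 and 0.59), mt-Co2 (0.48 and 0.018 for poly(A) and pull-down), mt-Co3 (0.29 and 0.32) and mt-Cytb (0.35, poly(A)), and mt-Co3 gave -0.0071 for pull-down minus poly(A). Members called became 3 higher and 0 lower for poly(A) (all genes: 50.6% and 12.5%), 1 higher for pull-down (52.5%) and 3 higher for digestion (71.9%). With copies the counts became 3 higher and 0 lower, 3 lower, and 2 higher. Summed shares alone became 1.80% and 1.98% (batches 1 and 2) and 9.98% (heart), and over all counts 0.403%, 0.470% and 2.55%. Heart over liver was 2.47 with Lars2 kept and 2.19 with TMM scaling (log2).

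TMM scaling turned mt-Co2 (0.15, pull-down against unselected), mt-Atp6 (-0.019, digestion against pull-down), mt-Co1 (0.014, poly(A) against digestion) and, with copies, mt-Co1 (0.018 and 0.067 for poly(A) against unselected and digestion) and mt-Co3 (-0.091 for digestion against unselected, -0.024 for pull-down minus poly(A)). Members called became 1 lower (poly(A) against unselected), 0 higher (digestion against unselected) and 1 higher (digestion against pull-down); with copies 1 lower, 2 higher (digestion against pull-down) and 1 lower (pull-down minus poly(A)). DESeq2 gave 0.051 for mt-Co2 (pull-down against unselected), 0 members higher (digestion against unselected), 2 higher (digestion against pull-down) and 2 lower (pull-down minus poly(A)). Without the filter 1 member was lower for pull-down minus poly(A). A 2-fold minimum left 1 lower (poly(A) against unselected), 0 higher (digestion against pull-down), 1 higher (poly(A) against digestion), 2 and 0 higher for length in poly(A) and digestion, and 1 lower for digestion minus poly(A). Each method alone gave 1 lower for length in poly(A), and 4 higher and 1 lower in digestion.

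Without the low-depth pull-down library, mt-Co2 gave 0.19 (pull-down against unselected), and the ramp changes turned for mt-Co1 (-0.021) and, with copies, mt-Co1 (-0.033), mt-Co2 (-0.0046) and mt-Atp6 (-0.021); mt-Atp6 with copies gave 0.13 for pull-down minus poly(A). Members called became 2 higher (digestion against unselected), 2 lower (poly(A) against pull-down), 1 lower (pull-down minus poly(A)) and 5 higher (pull-down minus digestion); with copies 2 lower (poly(A) against digestion), 2 higher (length in digestion), 1 lower and 5 higher. Leaving out 1 unselected library gave 0 members higher for digestion whichever was left out, and for poly(A) 0 to 1 higher and 1 to 2 lower. Ranges that crossed 0 were -0.043 to 0.14 for mt-Atp8 (poly(A), with and without copies), -0.16 to 0.25 for mt-Co2 (pull-down), -0.30 to 0.057 for mt-Atp6 (digestion) and, with copies, -0.034 to 0.057 for mt-Co3 (digestion).

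Replicate numbers of the 2 unselected batches carry no stated pairing, and deviations of same-numbered libraries correlated at 0.0617, -0.366 and -0.537. With the replicate block 6 members and 47 genes were called higher in batch 2 and 36 genes lower, and without it, in the same 6 libraries, 3 members, 22 and 15 genes. Remaining counts were 2.89 M to 3.1 M in the unselected liver libraries and 0.85 M in the low-depth pull-down library.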

Other observations

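Nuclear genes of the same complexes also differed with fragment length. Cox7c, a small subunit of complex IV, was higher in long than in short fragments in all 3 methods by edgeR, by 1.17 ± 0.06 (log2, adjusted p = 2.76e-12) in poly(A), 1.13 ± 0.06 (adjusted p = 1.7e-11) in pull-down and 0.80 ± 0.06 (adjusted p = 7.27e-09) in digestion libraries. Cox6a1 was lower in long poly(A) fragments (-0.78 ± 0.12, adjusted p = 2.18e-05). Of 13 nuclear complex IV genes, 5 were higher and 4 lower in long poly(A) fragments, and of 16 complex V genes 7 were higher and 4 lower, where 21.8% and 29.2% of all genes were higher and lower. In pull-down libraries the counts were 7 and 0 for complex IV and 9 and 1 for complex V (all genes: 15.3% and 18.9%), and in digestion libraries 6 and 0 for each (3.52% and 2.35%). With TMM scaling the poly(A) counts were 6 and 4 for complex IV and 9 and 2 for complex V (24.1% and 26.4% of all genes).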
